A study of Mus musculus with 2 samples.

Results

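H3K4me3, trimethylation of lysine on the tail of histone H3 that marks the starts of active and poised genes, was examined at 10 genes of lipid and glycolytic metabolism in lung group 2 innate lymphoid cells (ILC2s). The genes were Pparg, Acly, Fasn, Scd1, Dgat1, Dgat2, Cpt1a, Hif1a, Vhl and Ldha, chosen by name out of 21938 protein-coding genes of the GENCODE vM21 annotation of GRCm38. For each gene, every H3K4me3 peak was taken that overlapped the gene body or lay within 1000 bp of any of its transcript starts. By this rule 14 of the 42126 peaks listed for offspring of control mothers (the control list) and 13 of the 51610 listed for offspring of asthmatic mothers (the asthmatic list) were taken.

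ILC2s are tissue-resident lymphocytes that lack antigen receptors and release type 2 cytokines when alarmins such as IL-33 reach them. Activated ILC2s take up external lipids and store them as triglyceride in lipid droplets before using them. PPARγ and the DGAT enzymes act in this storage, CPT1A admits fatty acids to mitochondria for oxidation, and HIF-1α, held down by VHL, drives glycolysis up to lactate dehydrogenase A. An H3K4me3 peak at a start shows that the start carries the mark, and it does not measure how much RNA is made.

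There was 1 library per group, each from about 3000 lung ILC2s of 8-week-old offspring, profiled by CATCH-seq, carrier-assisted ChIP-seq of unfixed chromatin cut with micrococcal nuclease (MNase). Both groups of mothers were injected intraperitoneally with alum on day -21 and day -7 when 6 to 8 weeks old, were mated with untreated males, and were treated intranasally on gestation days 4 to 17. Control mothers had PBS at every step, whereas asthmatic mothers had 100 µg of ovalbumin (OVA) in each injection and 500 µg in each intranasal dose. The labels give no genotype and no treatment of the offspring themselves, and the wild-type mice of the study's methods were C57BL/6J. How many offspring were pooled in a library is not given in the sources used here, and with no replicate no difference between the groups can be tested. Every comparison below is therefore between 2 libraries and not between 2 conditions. In a population of cells, a smaller share of marked cells and a weaker mark in each cell cannot be told apart.

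The deposited values of a peak are its position, its fold over the peak caller's background, and −log10 p and −log10 q against that background. They are not scaled between libraries, so strength is given here as a percentile, the rank of a peak by −log10 q among all peaks of its own list. The lists differed throughout the genome. The median peak was 315 bp wide in the control list and 249 bp in the asthmatic list, and the narrowest was 190 and 156 bp. Of all peaks, 30.3% lay at a protein-coding start in the former and 19.5% in the latter, and the median percentile of those start peaks was 76.8 and 53.6. The background solved from fold and p was at least 96.1 and 100.4 fragments per 10 kb. A start peak was found for 51% of all protein-coding genes in the control list and 42% in the asthmatic list. Among ILC2 markers, 10 of 12 had one in the former and 8 in the latter, Il1rl1 (the IL-33 receptor ST2 used in the sort) and Rora in both lists, Gata3 and Il7r in the control list alone, and Icos and Klrg1 in neither. On the gene body away from starts, Gata3 had a peak in the asthmatic list and Icos in both. None of 7 T cell, 5 B cell, 8 macrophage, 5 fibroblast and 4 adipocyte markers had a start peak in either list, although Adgre1, Mrc1 (macrophage) and Plin1 (adipocyte) had a peak on the gene body in both. Of 8 markers of alveolar type 2 (AT2) cells, which also make fatty acids, 3 had a start peak in the control list (Abca3, Epcam and Cdh1) and 2 in the asthmatic list (Abca3 and Sftpb), and their defining marker Sftpc had none in either. Of 4 endothelial markers, Kdr alone had one, in the control list, and Cdh5 and Tek had body peaks in both. The part of other cells in the values below was not tested.

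Pparg had annotated starts with and without a peak within 1000 bp. It encodes the lipid-sensing nuclear receptor PPARγ and has 7 annotated starts, of which 4 had a peak within 1000 bp in each list. RefSeq windows of the assembly GRCm38.p6, from 250 bases before to 50 after a start, are printed on the plus strand with each CG dinucleotide in capitals. They are shown because nearly all of the most upstream one lay under a peak of both lists, the middle one lay across the downstream edge of those peaks, and the last one, at chr6:115422066, more than 1000 bp from any peak.
Pparg upstream start, chr6:115360894-115361193: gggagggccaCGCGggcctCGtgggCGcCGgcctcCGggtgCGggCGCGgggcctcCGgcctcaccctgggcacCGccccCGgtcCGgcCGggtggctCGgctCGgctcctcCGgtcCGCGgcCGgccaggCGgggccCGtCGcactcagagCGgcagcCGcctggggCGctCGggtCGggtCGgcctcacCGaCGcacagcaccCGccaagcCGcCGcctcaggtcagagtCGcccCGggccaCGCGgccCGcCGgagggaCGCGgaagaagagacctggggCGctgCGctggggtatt
Pparg middle start, chr6:115362099-115362398: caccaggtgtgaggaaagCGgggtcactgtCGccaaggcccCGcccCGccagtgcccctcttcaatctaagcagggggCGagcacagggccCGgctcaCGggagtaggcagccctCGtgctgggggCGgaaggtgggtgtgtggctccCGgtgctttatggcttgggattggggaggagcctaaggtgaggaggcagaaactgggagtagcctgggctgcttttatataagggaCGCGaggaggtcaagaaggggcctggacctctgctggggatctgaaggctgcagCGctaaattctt
Pparg downstream start, chr6:115421816-115422115: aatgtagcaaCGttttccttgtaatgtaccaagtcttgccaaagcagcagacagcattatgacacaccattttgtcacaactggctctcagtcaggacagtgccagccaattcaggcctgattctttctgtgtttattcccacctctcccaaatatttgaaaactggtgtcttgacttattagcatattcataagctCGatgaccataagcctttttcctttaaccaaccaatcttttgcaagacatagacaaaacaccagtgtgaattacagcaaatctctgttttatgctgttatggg
The upstream window held 44 CG dinucleotides, at the 97.5th percentile of 21254 windows of protein-coding genes, and 80.3% of its bases were G or C. The middle window held 13, which is also the median of all windows. The downstream window held 2, with 40.3% G or C. Peaks covered 279 of the 300 bases of the upstream window in the control list and 300 in the asthmatic list, 274 and 51 of the middle window, and 0 and 0 of the downstream window. The number of CG dinucleotides did not order the windows of the other genes in this way. The Fasn window held 39 and had 262 bases under a peak in the control list and 0 in the asthmatic list. The windows of Cpt1a with 22 and Acly with 18, and that of the upstream Ldha start with 30, had 0 in both lists, although each had a peak within 1000 bp.

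Hif1a and Ldha are shown for a second feature, the core ACGTG of the sites that HIF-1 binds, in capitals on whichever strand it was read (CACGT on the printed strand where it lies on the other). The letters were searched on both strands of the same windows, and overlapping matches were each counted.
Hif1a, chr12:73907617-73907916, plus strand: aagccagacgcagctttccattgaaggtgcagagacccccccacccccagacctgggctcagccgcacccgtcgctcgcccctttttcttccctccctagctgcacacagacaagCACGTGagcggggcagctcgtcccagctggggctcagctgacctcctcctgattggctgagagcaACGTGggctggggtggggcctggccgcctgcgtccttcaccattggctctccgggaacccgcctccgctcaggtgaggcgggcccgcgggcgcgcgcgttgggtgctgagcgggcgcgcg
Ldha, chr7:46845554-46845853, plus strand: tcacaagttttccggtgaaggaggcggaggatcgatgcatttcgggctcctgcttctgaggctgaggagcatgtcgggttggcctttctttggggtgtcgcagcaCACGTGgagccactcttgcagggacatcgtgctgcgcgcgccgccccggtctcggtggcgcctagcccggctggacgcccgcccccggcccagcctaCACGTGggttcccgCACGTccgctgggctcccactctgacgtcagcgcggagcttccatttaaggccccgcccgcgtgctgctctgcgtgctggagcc
The printed Ldha window held 5 matches at 3 places, since the palindrome CACGTG reads the same on both strands. A further Ldha window, chr7:46846832-46847131, held 0 matches. It had 203 bases under a peak in the control list and 64 in the asthmatic list. The Hif1a window held 3 matches at 2 places. Of all windows, 20.9% held at least 1 match and 2.08% held 3 or more. Of the 10 windows listed for 7 of the genes (Pparg, Acly, Fasn, Cpt1a, Hif1a, Vhl and Ldha), 3 held a match, the other being that of Acly. A direct repeat of AGGTCA with 1 base of any kind between the copies, a site for PPAR receptors, was in none of the 10 and in 0.0471% of all windows. The letters TCACNCCAC, a sterol response element, were also in none, and in 1.19% of all. The core ACANNNTGT of glucocorticoid response elements was in none, and in 5.98% of all. The letters CCAAT and GGGCGG were each in 6 of the 10, and in 38.2% and 46.2% of all. A match describes these letters and is no evidence of binding.

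The same genes were marked in both lists. A peak by the rule was found at 9 of the 10 genes in each list, where 58.2% of all protein-coding genes had one in the control list and 51.9% in the asthmatic list. The same 9 had a peak at a start, meaning within 1000 bp of one, against 51% and 42% of all genes. The exception, Scd1, had no peak in either list, as did 39.3% of all genes. A start peak in both lists was found for 41.3% of all genes, in the control list alone for 9.72% and in the asthmatic list alone for 0.711%, and none of the 10 genes was in these last groups. Among the 10000 peaks of highest −log10 p of each list, 6 of the genes had a start peak in the control list and 1, Acly, in the asthmatic list, where 32.3% and 9.34% of all protein-coding genes had one. With the most upstream end of each gene as its only start, 6 genes had a start peak in each list. The shares of all protein-coding genes were not taken for that setting, so this count has no background. With a −log10 q of at least 5 required, 9 had a start peak in the control list and 8 in the asthmatic list, where Fasn was lost. Over all protein-coding genes, start peaks fell from 12762 to 11986 in the control list and from 10062 to 8491 in the asthmatic list. The share of genes keeping a start peak was not taken. The 9 genes had 13 start peaks in the control list and 12 in the asthmatic list, of which 9 and 8 overlapped an exon, 3 and 3 lay in an intron and 1 and 1 outside the gene. An annotated start was itself covered by 7 of these peaks in the control list and 4 in the asthmatic list, at 6 and 4 genes. The share of all genes with a covered start was not taken. The other list overlapped 8 of the 13 (61.5%) and 11 of the 12 (91.7%), where it overlapped 70.0% and 95.6% of the start peaks of all protein-coding genes. With at least 50% of both peaks required to overlap, the shares for the 9 genes were 38.5% and 41.7%, and those for all protein-coding genes 47.5% and 60.1%. The median G and C content of the start peaks was 67.4% and 66.4%, and the 75 bases around each of the 25 summits occurred nowhere else in the assembled chromosomes.

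**Figure D1:**
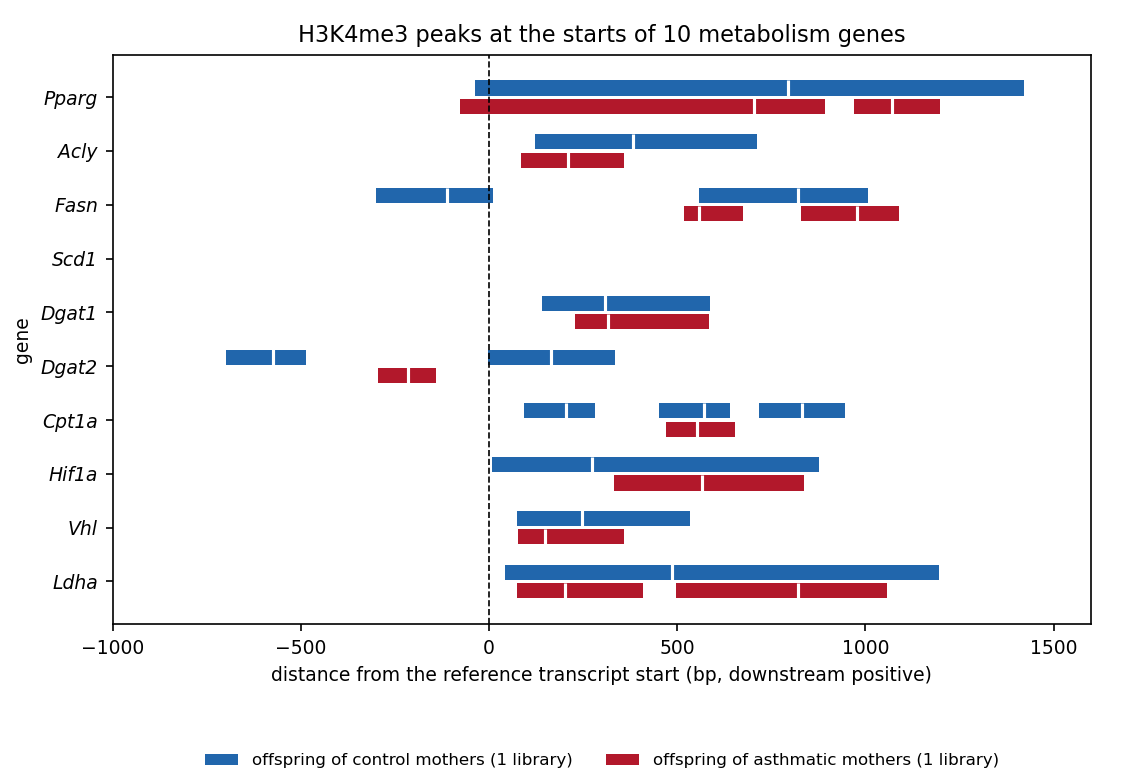
Start peaks of the 10 genes by distance in bp from a reference transcript start, with downstream positive. Blue bars are peaks of the control list, red bars those of the asthmatic list, and white ticks the summits. Scd1 has no bar, and the red bar of Dgat2 lies between its blue bars without touching either.

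At Pparg (ENSMUSG00000000440.12, chr6:115360951-115490399, plus strand), the control list had a single peak of 1458 bp, from -36 to 1421 bp relative to the most upstream start. The asthmatic list had 2 peaks over the same stretch, of 969 and 230 bp, together 1199 bp. Ranked by width, the widest Pparg peak of each list stood at the 99.9th percentile of the control list and at the 99.4th of the asthmatic list. By −log10 q the same gene stood lower, at the 89.0th percentile in the control list (−log10 q 16.2, fold 6.73) and at the 48.9th in the asthmatic list (−log10 q 6.96, fold 5.29). Both peaks of the asthmatic list had the same height. At the summit, 34 fragments (exact Poisson 95% interval 23.5 to 47.5) and 17 fragments (9.90 to 27.2) were solved from the fold and the −log10 p, over a local background of 4.20 and 2.40. The adipocyte markers Adipoq, Plin1, Cidec and Lep and all 8 macrophage markers had no start peak in either list, and of these Plin1, Adgre1 and Mrc1 had a peak on the gene body in both. Other markers did have a start peak, namely Abca3 in both lists, Epcam, Cdh1 and Kdr in the control list and Sftpb in the asthmatic list. The part of other cells in the Pparg peaks was not tested.

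The enzymes of fatty acid synthesis differed among themselves. Acly encodes ATP citrate lyase, which makes cytosolic acetyl-CoA from citrate, and lies at chr11:100476353-100528000 on the minus strand (ENSMUSG00000020917.17). Its peak was 589 bp wide in the control list and 273 bp in the asthmatic list. Its percentile was 80.6 in the control list and 84.5 in the asthmatic list, the only one of the 9 genes to stand higher in the latter by −log10 q. The difference of 3.83 points lay at the 91.3rd percentile of the differences of all 9064 genes with a start peak in both lists. Summit fragments were 23 (14.6 to 34.5) and 19 (11.4 to 29.7), and the fold was 7.54 and 7.79. Ranked by fold or among start peaks alone, Acly again stood higher in the asthmatic list (84.7 against 91.0, and 56.8 against 86.7), while by width it stood lower there (85.3 against 57.0).

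Fasn encodes fatty acid synthase, which builds palmitate from malonyl-CoA, and lies at chr11:120805846-120824547 on the minus strand (ENSMUSG00000025153.9). The control list had a peak of 312 bp over the most upstream start, from -300 to 11 bp relative to it. That peak was weak, at the 3.13th percentile (−log10 q 3.71), and the asthmatic list had none there. Downstream of the start, from 557 to 1007 bp, the control list had a stronger peak of 451 bp at the 67.6th percentile. The asthmatic list had peaks of 156 and 261 bp, from 519 to 674 and from 829 to 1089 bp, that overlapped the control peak at its ends, and the stronger stood at the 18.3rd percentile. Fasn thus had 763 bp under start peaks in the control list and 417 bp in the asthmatic list. The difference between its percentiles, -49.3 points, was the largest among the 9 genes by −log10 q. By fold and by width the largest was that of Dgat2 (-30.4 and -50.9, against -28.4 and -19.4 for Fasn), and among start peaks alone that of Hif1a (-40.7 against -22.4). Summit fragments were 24 (15.4 to 35.7) and 14 (7.65 to 23.5).

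Scd1, which encodes stearoyl-CoA desaturase and lies at chr19:44394455-44407879 on the minus strand, had none of its 3 starts within 1000 bp of a peak in either list, and no peak on its body. Its relative Scd2 had a start peak at the 53.6th percentile of the control list and none in the asthmatic list. A missing peak shows a signal below the caller's threshold and not that the mark is absent.

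The enzymes of the last step of triglyceride synthesis, DGAT1 and DGAT2, catalyse the same reaction and are unrelated in sequence. Dgat1 (chr15:76502015-76511953, minus strand, ENSMUSG00000022555.12) had a single peak in each list, 447 bp wide in the control list and 356 bp in the asthmatic list, which ended within 4 bp of each other on the downstream side. It stood at the 92.7th and the 67.9th percentile, with 32 (21.9 to 45.2) and 19 (11.4 to 29.7) fragments at the summit. The summits were 308 and 315 bp downstream of the reference start. Ranked by width, Dgat1 stood at 72.6 in the control list and 75.1 in the asthmatic list.

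Dgat2 (chr7:99153658-99182719, minus strand, ENSMUSG00000030747.5) was the only one of the 9 genes at which no start peak of one list overlapped a start peak of the other. This gap closed once peaks were merged across distances of up to 1000 bp. The share of all genes with a start peak in both lists that lacked such an overlap was not taken, so this observation has no background. The control list had a peak of 338 bp, from -2 to 335 bp relative to the start, at the 71.9th percentile. A further peak of 212 bp, 65.1% of it repeat-masked, lay 487 bp upstream at the 47.2nd percentile. The asthmatic list had instead a peak of 156 bp, the smallest width in that list, 141 bp upstream of the start and outside the gene, at the 28.9th percentile. Bases under start peaks were 550 and 156. The strongest peak held 22 (13.8 to 33.3) fragments at its summit in the control list and 14 (7.65 to 23.5) in the asthmatic list.

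Cpt1a (chr19:3322334-3385733, plus strand, ENSMUSG00000024900.5) encodes the carnitine palmitoyltransferase of the outer mitochondrial membrane, the entry step of fatty acid oxidation. The control list had 3 small peaks of 190, 190 and 228 bp in an intron, between 93 and 944 bp downstream of the reference start. The asthmatic list had a single peak of 183 bp that overlapped the middle one. The stretch covered in both lists is printed with each CG in capitals, because it is the only part of this start that both lists called.
Cpt1a, chr19:3323755-3323925, plus strand: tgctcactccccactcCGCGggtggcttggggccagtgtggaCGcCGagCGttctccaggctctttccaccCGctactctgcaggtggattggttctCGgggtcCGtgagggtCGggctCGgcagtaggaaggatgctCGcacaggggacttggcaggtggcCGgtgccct
It held 12 CG dinucleotides in 171 bases. The strongest start peak stood at the 37.2nd percentile of the control list and at the 31.1st of the asthmatic list, so Cpt1a was the lowest ranked of the 9 genes in the former. This order turned under other rankings, with 24.5 in the control list against 37.8 in the asthmatic list by fold, 16.2 against 27.1 among start peaks alone, and 23.3 against 23.4 by width. Its summits held 23 (14.6 to 34.5) and 16 (9.15 to 26.0) fragments, over a local background of 4.81 in the control list, the highest of the 9 genes, and 2.54 in the asthmatic list. Cpt1a was also the only gene with a peak on its body away from a start, at a different place in each list, and neither peak overlapped one of the other list. The peak of the control list was 336 bp wide, 6625 bp from the nearest start, at the 87.8th percentile. That of the asthmatic list was 204 bp wide, 4187 bp from the same start, at the 73.8th percentile. The 75 bases at these summits occurred at 5 and 4 other places in the genome, and 100% of the first peak and 3.92% of the second were repeat-masked, so a read of those bases alone cannot be placed with certainty.

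Hif1a and Vhl, which encode the oxygen-regulated transcription factor subunit HIF-1α and the ubiquitin ligase subunit that marks it for degradation, were ranked high in the control list. Hif1a (chr12:73901375-73947530, plus strand, ENSMUSG00000021109.13) has 4 annotated starts. The start at chr12:73907904 had a peak in each list and the most upstream one, at chr12:73901375, in neither. The peak was 869 bp wide in the control list, from 9 to 877 bp downstream of the start, and 506 bp in the asthmatic list, from 331 to 836 bp. The asthmatic peak thus lay inside the control peak and left out its upstream part. The percentiles by −log10 q were 93.7, the highest of the 9 genes in the control list, and 48.4. By fold Hif1a stood at 87.0 in the control list, below Vhl (93.9) and Dgat1 (89.4), and by width at 96.2, below Pparg and Ldha. Summit fragments were 35 (24.4 to 48.7) and 15 (8.40 to 24.7). Their ratio of 2.33 was the highest among the 9 genes, at the 94.9th percentile of all 9064 genes.

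Vhl (chr6:113623959-113631633, plus strand, ENSMUSG00000033933.13) had a single peak in each list that began 75 and 77 bp downstream of the most upstream start. Its width was 458 bp in the control list and 281 bp in the asthmatic list. The percentiles were 93.0 and 57.2 and the summit fragments 29 (19.4 to 41.6) and 15 (8.40 to 24.7). The upstream edge was thus shared, and the peaks parted on the downstream side.

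Ldha (chr7:46841475-46855627, plus strand, ENSMUSG00000063229.15), which encodes the muscle-type subunit of lactate dehydrogenase, has 13 annotated starts, and 11 of them lay within 1000 bp of a peak in each list. In offspring of control mothers a single peak of 1153 bp ran from 43 to 1195 bp downstream of the reference start. The asthmatic list held peaks of 334 and 560 bp over that stretch, together 894 bp. The percentiles were 91.4 and 64.9, the latter from the narrower and more upstream peak, while the wider peak stood at the 28.3rd. Summit fragments were 36 (25.2 to 49.8) and 20 (12.2 to 30.9), the highest of the 9 genes in each list. No base of the Ldha window printed above lay under a peak in either list, since the peaks began downstream of it.

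**Figure D2:**
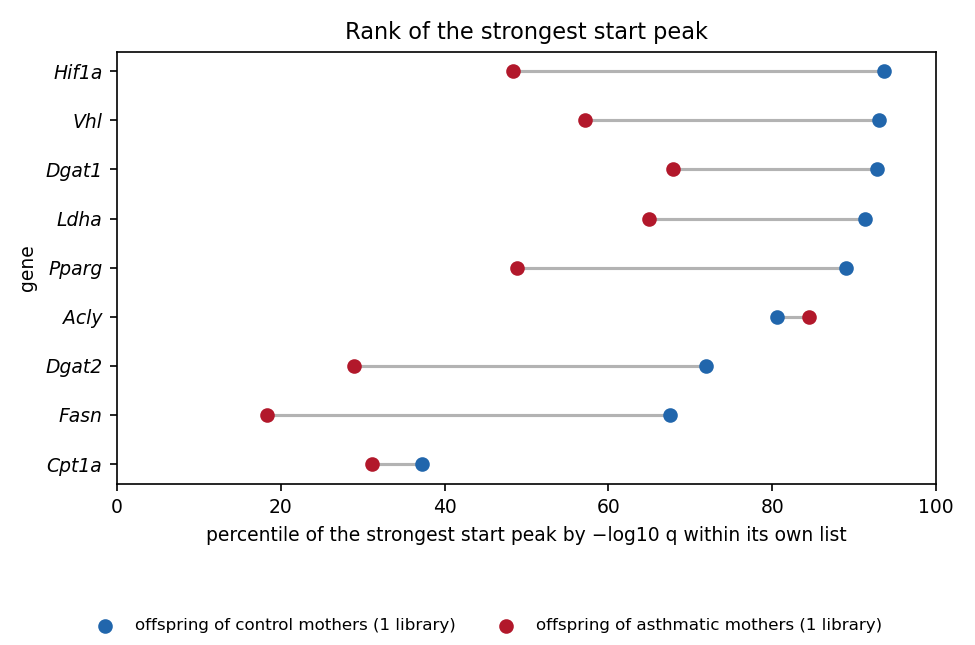
Percentile of the strongest start peak by −log10 q within its own list, for the 9 genes with a start peak, 1 library per group. The points of offspring of control mothers (blue) lie between 37.2 and 93.7 and those of offspring of asthmatic mothers (red) between 18.3 and 84.5, and only for Acly does the red point lie to the right under this ranking.

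**Figure D3:**
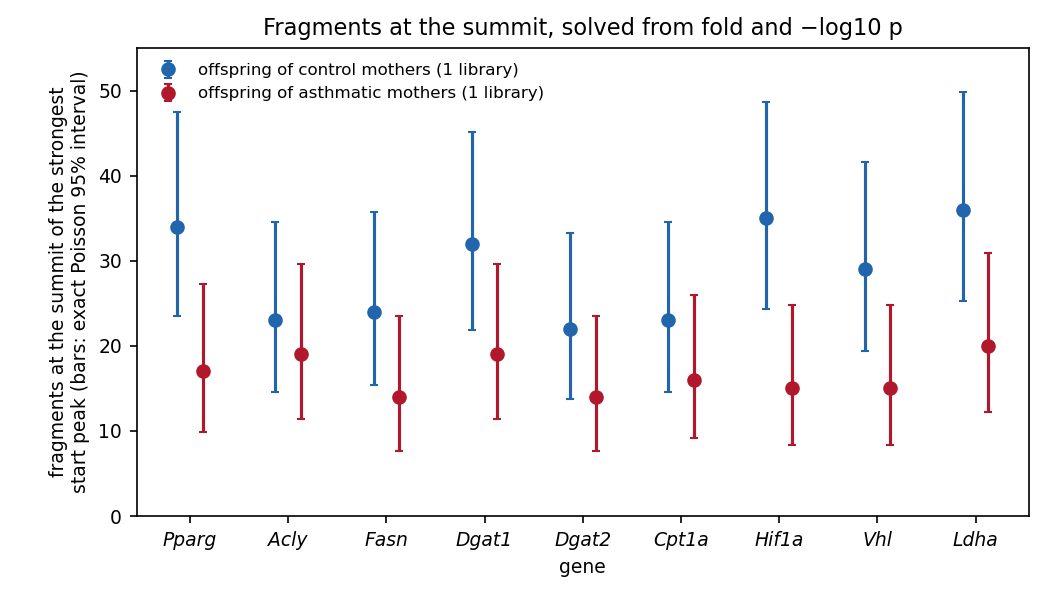
Fragments at the summit of the strongest start peak of each gene, solved from the fold and the −log10 p. Bars are exact Poisson 95% intervals, which cover counting error only. The intervals of the 2 libraries overlap for all 9 genes, which does not show that the counts are equal.

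Side by side, all 9 had more bases under start peaks in the control list, as did 94.6% of the 9064 genes with a start peak in both lists, and 6 of the 9 had over 1.5 times more, against 56.2%. The ratio of bases, control over asthmatic, had a median of 1.72 over the 9 genes (1.22 to 3.53) and of 1.59 over the 9064. It was 3.53 for Dgat2 and 3.32 for Cpt1a, at the 93.5th and 92.4th percentile of all genes, and 2.16 for Acly, 1.83 for Fasn, 1.72 for Hif1a and 1.63 for Vhl. It was lowest for Ldha (1.29), Dgat1 (1.26) and Pparg (1.22), the last at the 20.1st percentile of all genes. With widths divided by the narrowest width of each list, which lowers every ratio by the same factor, the ratio was 0.998 for Pparg, 1.03 for Dgat1 and 1.06 for Ldha, and 1.31 at the median of all 9064 genes. The order of the genes also rested on summing the peaks of a start. With the widest single start peak in place of the sum, the ratio was 1.25 for Cpt1a, the lowest of the 9, 2.06 for Ldha and 2.17 for Dgat2, and 1.55 at the median of all 9064 genes. Peaks joined across gaps of up to 1000 bp gave 6.63 for Dgat2 and 4.66 for Cpt1a, again the highest 2 of the 9. The median of all genes was not taken for joined peaks. Pparg and Ldha had the most bases under start peaks of the 9 genes in both lists, at the 98.2nd and 92.9th percentile of all genes with a start peak in the control list and at the 99.4th and 96.4th in the asthmatic list. Pparg and Ldha were thus wide in both lists, while Dgat2 and Cpt1a, with 550 and 608 bp in the control list, had 156 and 183 bp in the asthmatic list.

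**Figure D4:**
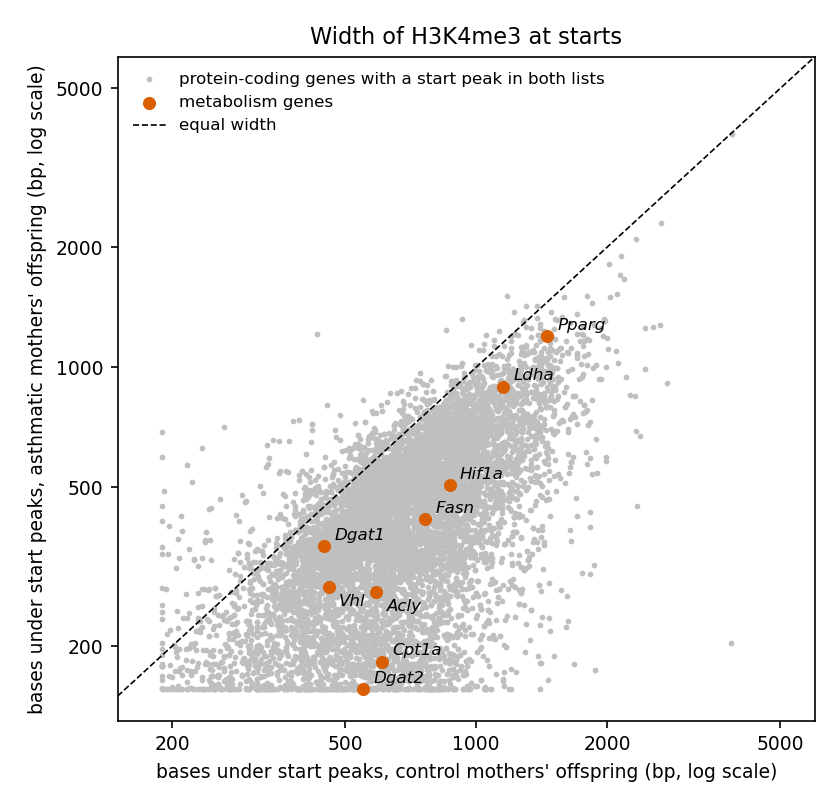
Bases under start peaks in the control list (horizontal, bp, log scale) and in the asthmatic list (vertical, bp, log scale), 1 library each. Grey points are the 9064 protein-coding genes with a start peak in both lists, orange points the 9 metabolism genes, and the dashed line marks equal width; all 9 orange points lie below it.

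By rank, 8 of the 9 genes stood higher in the control list, against 86.7% of the 9064 genes, and 7 stood over 10 percentile points higher, against 69%. The difference, asthmatic minus control, had a median of -35.9 points over the 9 genes (-49.3 to 3.83). It was -21.0 points when peaks were ranked by fold, -5.91 by width and -17.8 among start peaks of protein-coding genes alone, where the medians of the 9064 genes were -10.1, -6.48 and -6.82. Under each of these rankings 7 of the 9 genes stood higher in the control list, against 74.2%, 67.9% and 61.4% of the 9064. Over the 9064 genes the median was -21.1 and the middle 50% of genes lay between -39.7 and -6.78. Fasn (-49.3), Hif1a (-45.3), Dgat2 (-43.0) and Pparg (-40.1) lay below that range, Vhl (-35.9), Ldha (-26.5) and Dgat1 (-24.8) within it, and Cpt1a (-6.05) and Acly above it. All 9 had more summit fragments in the control list, as did 97.2% of the 9064 genes. The ratio of fragments had a median of 1.71 over the 9 (1.21 to 2.33) and of 1.63 over all. For each of the 9 genes the exact Poisson intervals of the libraries overlapped, which does not show that the counts were equal. The share of the 9064 genes with overlapping intervals was not taken. The local background was 3.44 fragments at the median of the 9 genes and 2.49 at that of all marked genes in the control list, and 2.29 and 1.67 in the asthmatic list. In neither list did another gene's start lie within 1000 bp of a start peak of the 9.

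The other genes of these pathways were read in 9 lists of 122 genes in all, each found in the annotation. A start peak was found for 107 (87.7%) in the control list and 91 (74.6%) in the asthmatic list, where all protein-coding genes had 51% and 42%. Among the 10000 peaks of highest −log10 p, the counts were 70 and 25 of the 122, against 32.3% and 9.34% of all genes. Of the 122, 91 had a start peak in both lists, 16 in the control list alone, 0 in the asthmatic list alone and 15 in neither. The genes named below for a start peak missing from a list could still have a peak on their body there, as Pdk3, Ppargc1a, Ppargc1b, Egln1, Prkaa2 and Hif3a did in the asthmatic list, Acacb in the control list and Cd36 in both. Among the 91, 88 were wider and 75 ranked higher in the control list, and the median ratio of bases was 1.59, as over all genes. Named below with both percentiles are the 2 genes of each pathway list with the highest control percentile. Such a choice favours genes that stand lower in the asthmatic list.

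Of 20 genes of glucose uptake and glycolysis, 18 had a start peak in the control list and 17 in the asthmatic list. Eno1 (enolase) stood at the 94.9th percentile of the control list and the 93.8th of the asthmatic list, and Pfkl (liver phosphofructokinase) at the 93.9th and 52.6th. Ldhb, the heart-type counterpart of Ldha, had a start peak in the control list alone, while Aldoc and Pgk1 had none in either. Of 9 genes of pyruvate entry to mitochondria the counts were 8 and 5, with Pdk2 and Pdk3, kinases that switch off pyruvate dehydrogenase, and Pdha1, a subunit of that enzyme, in the control list alone and Pdk4 in neither. Pdhb stood at the 91.1st and 41.2nd percentile, and Dlat at the 88.6th and 76.9th.

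Of 19 genes of citrate export and fatty acid synthesis, 16 and 14 had a start peak. Nr1h2, which encodes the sterol receptor LXRβ, stood at the 98.7th and 78.5th percentile and Cs (citrate synthase) at the 93.0th and 57.2nd. Nr1h3 and Scd2 had a start peak in the control list alone, and Acacb, Fads2 and Mlxipl in neither. Of 17 genes of triglyceride and lipid droplets, 14 had a start peak in each list, and this was the only list with equal counts. Gpat4, an acyltransferase of the first step of glycerolipid synthesis, stood at the 97.4th and 82.0th percentile, and Plin2, a lipid droplet coat protein, at the 95.7th and 70.7th. Mogat1, Mogat2 and Plin3 had none in either list.

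Of 10 genes of fatty acid uptake and activation, 7 and 6 had a start peak. Acsl5, an acyl-CoA synthetase, stood at the 92.2nd and 71.0th percentile and the transporter Slc27a4 at the 84.4th and 34.1st. Fabp5 had one in the control list alone, and Cd36, Slc27a1 and Fabp4 in neither. Of 15 genes of fatty acid oxidation, 13 and 12 had one. Cpt2, which acts after CPT1A in the carnitine shuttle, stood at the 96.1st and 66.4th percentile, well above Cpt1a in both lists, and Acadm at the 93.8th and 66.4th. Etfdh had a start peak in the control list alone, and the isoforms Cpt1b and Cpt1c in neither.

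All 10 PPAR partners and cofactors had a start peak in the control list and 7 in the asthmatic list. Ppara and the coactivator genes Ppargc1a and Ppargc1b had one in the control list alone. Rxrg, a retinoid X receptor, stood at the 95.1st and 73.8th percentile, and Ppard at the 93.3rd and 49.8th. Only 4 of the 7 genes with a start peak in both lists ranked higher in the control list. Of 13 oxygen-sensing genes, 12 and 9 had one, with the prolyl hydroxylase Egln1, the asparaginyl hydroxylase Hif1an and the HIF-1 target Vegfa in the control list alone and Hif3a in neither. Cul2 and Eloc, partners of VHL in its ubiquitin ligase, stood at the 98.6th and 75.3rd and at the 96.9th and 79.7th percentile. Of 9 nutrient-sensing genes, 9 and 7 had one. Myc and Prkaa2 had a start peak in the control list alone, while Prkaa1, the other catalytic subunit of AMP-activated kinase, stood at the 97.8th and 84.5th percentile and Tsc1 at the 96.2nd and 68.2nd.

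**Figure D5:**
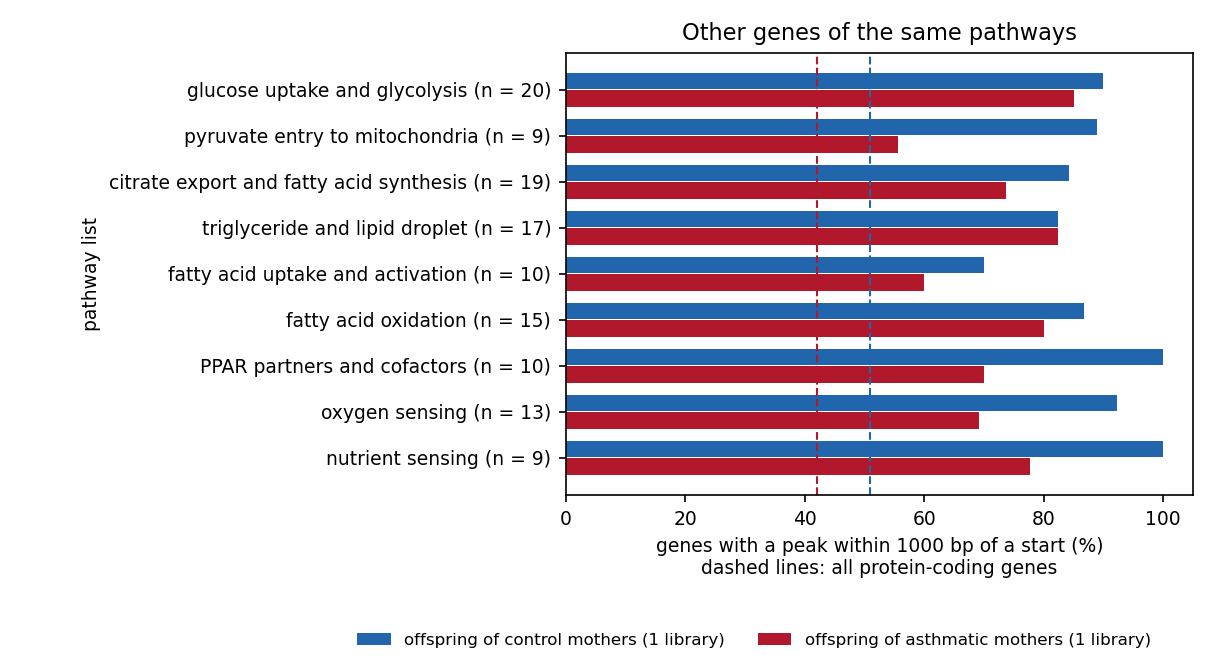
Share of the genes of each pathway list with a peak within 1000 bp of a start, in percent, in the control list (blue) and of asthmatic mothers (red), 1 library each. Dashed lines are the shares of all protein-coding genes, 51% and 42%, and every bar lies to the right of the line of its colour.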

How the data were processed

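H3K4me3 CATCH-seq of sorted lung ILC2s was analysed for 1 library of offspring of PBS-treated (control) mothers and 1 of offspring of OVA-treated (asthmatic) mothers. Per the study's methods and the submitters' processing notes, the authors trimmed reads with Trim Galore and cutadapt, aligned them to GRCm38 (mm10) with Bowtie2 and removed duplicates. The peak caller and its threshold are not given in the sources used here, and the study states that no peaks were called on its ChIP-seq data, although a list per library was deposited. In the deposited lists the score was 10 times the −log10 q, the fold was a ratio of summit signal to background, and p-values and q-values were given as −log10 p and −log10 q, the latter at least 2.02 and 2.01. Sequencing depth is not stated in these lists.

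Genes and starts came from GENCODE vM21. Bases under start peaks are the union of peaks within 1000 bp of any start of a gene. Percentiles are ranks by −log10 q within a list, with ties at their mean rank. Peaks sharing at least 1 bp were counted as overlapping. Summit fragments and background were solved from fold and −log10 p under a Poisson model with 1 added to both, which matched the deposited −log10 p to within 0.001 for 100% of genes. They assume calling without a control, and a fragment length equal to the smallest peak width for the background per 10 kb. Promoter windows and sequences came from RefSeq tables and the GRCm38 reference, with windows listed for 7 of the 10 genes. Intervals are 95% and cover counting error only.

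The genes and the pathway and marker lists were chosen with earlier results of these data known. The text names the 10 genes, and from the pathway lists the genes with a start peak in 1 list only, those with none, and the 2 with the highest control percentile per list. With 1 library per group no test was run. Overlaps, widths and solved fragments were tested on simulated data. Alternatives were another distance, threshold, set of starts, overlap, width measure and ranking. Computations used Python 3.11.15, scipy 1.17.1, pandas 2.3.3 and numpy 2.4.6, and plots matplotlib 3.10.9.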

Additional observations from a re-analysis of the deposited data

How the results depend on the processing

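No paired analysis was possible because each group had a single library, and for the same reason no replicate could be left out. Of the summary values under the alternative settings, 46 stayed within 1.5 times the value for counts and ratios, or within 10 points for percentages and percentiles, and 11 moved further. With only the 10000 peaks of highest −log10 p, 1 of the 10 genes kept a peak by the rule in the asthmatic list and 1 a start peak, against 9 and 9 with all peaks, the pathway genes with a start peak were 70 in the control list and 25 in the asthmatic list, and 16.7% of the start peaks of the control list were overlapped, against 24.8% of those of all protein-coding genes. The overlapped shares were 38.5% and 41.7% when at least 50% of both peaks had to be shared, and 100% in the control list with peaks joined to domains, against 78.4% for all genes. The median rank difference of -35.9 points was -21.0 by fold, -5.91 by width and -17.8 among start peaks of protein-coding genes alone. The ratio of bases at Pparg, 1.22, was 0.998 once widths were divided by the smallest width of each list, a change of scale common to all genes (median 1.31 over 9064). Each cause was not tested. Rank differences, asthmatic minus control, that turned were those of Cpt1a, 13.3 points by fold, 10.9 among start peaks alone and 0.175 by width against -6.05, of Dgat1, 2.45 by width against -24.8, and of Acly, -28.3 by width against 3.83. Among single-gene values 96 stayed, 42 moved and 6 turned. Depth limits these results in that a start below the threshold in 1 library is not counted.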
